A study of Drosophila melanogaster with 136 samples.

Results

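The genes described here are 33 Drosophila melanogaster genes of the cell cycle and of DNA replication, picked by name and matched by FlyBase identifier in every mRNA table of the study. Of these, 31 had a row among the 17477 genes of the tables, and Mcm3 and Orc1 were not analysed here. By role they are 5 cyclins (CycA, CycB, CycB3, CycD, CycE), 4 genes that encode Cdks or act directly on them (Cdk1, Cdk2, stg, dap), 5 mitotic kinases and checkpoint components (polo, aurA, aurB, BubR1, Mps1) and 2 activators of the anaphase-promoting complex, the APC/C (fzy, fzr). The other roles are origin licensing and the replicative helicase with 9 genes (Mcm2, Mcm5, Mcm6, Mcm7, dpa, Orc2, Orc5, dup, geminin), the replication fork and nucleotide supply with 3 (PCNA, RnrS, RnrL) and the E2F transcription factors with 3 (E2f1, E2f2, Dp). All 31 passed the filter on low counts in each of the 6 tables.

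Cyclins bind and activate cyclin-dependent kinases (Cdks): cyclin D and cyclin E act around the entry into S phase, and cyclins A, B and B3 act in mitosis. Before S phase the origin recognition complex and dup (the fly Cdt1) load the MCM helicase onto origins, geminin blocks reloading, and E2f1 with its partner Dp activates genes of DNA synthesis. The first nuclear divisions of the fly embryo run on RNA and protein laid down by the mother; later divisions are timed by zygotic transcription of stg, the Cdc25 phosphatase that activates Cdk1, and cells leave the cycle with the help of dap, a Cdk inhibitor, and fzr, the APC/C activator of G1.

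The study concerns microRNA degradation directed by endogenous transcripts, in which Dora is a ubiquitin ligase component and AGO1 is the Argonaute protein that carries microRNAs. Polyadenylated RNA was sequenced in 68 libraries, in 6 tables that were normalised separately. The embryo groups were dora[B], dora[A] and CR43432 mutants (CR43432 is a noncoding RNA gene), each with its own wild-type (WT) controls; the labels give only these genotype names and the hours of collection. The dora[B] and dora[A] sets had 2 libraries per genotype at 8-12, 12-16 and 16-20 h. The CR43432 set had 2 mutant and 2 WT libraries at 8-12 and 12-16 h and 1 of each at 16-20 h, and 2 further WT libraries each at 0-2 and 2-4 h. The cultured groups were S2 cells, a line derived from late embryos and resembling hemocytes. They comprised dora and WT clones (3 each), dora and WT clones that each received double-stranded RNA against Ago1 or, as the control, against GFP (3 per group), and lines labelled for the transcripts ago1, h, kah, wgn and zfh1 with WT lines (2 each). Replicates were separate fly lines or clonal S2 lines, per the design text of the series. Each p-value measures the spread between libraries within the groups. The reported fits had no term for line or clone, so any libraries of the same line or clone in several groups counted as independent. The p-values of averages over ages may therefore be too small. An embryo collection is a mixture of tissues, so fewer cells of a dividing type and less RNA per cell cannot be told apart.

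Libraries held 8.96 to 35.5 M gene counts (M for mega). Dora RNA itself was present in all mutants: in dora[B] embryos at 8-12 h it was at 571 and 551 CPM (the read count of a gene scaled to library size), against 718 and 825 CPM in their WT controls, and in dora S2 clones at 117, 132 and 104 CPM, against 129, 131 and 122 CPM in WT clones. AGO1 RNA was at 204, 198 and 205 CPM in dora S2 cells given Ago1 double-stranded RNA, against 478, 436 and 438 CPM in dora cells given GFP double-stranded RNA. In WT S2 cells it was at 218, 245 and 228 CPM after Ago1 RNAi, against 744, 491 and 573 CPM after GFP RNAi. The Dora transcript level does not check the alleles, because the labels do not say what each allele changes, whereas the AGO1 groups did not overlap. Throughout, a gene was called when its adjusted p was under 0.05 in edgeR's quasi-likelihood test with Benjamini-Hochberg adjustment over all genes tested, and log2 fold changes are given with their standard error (SE). Counts at an unadjusted p under 0.05 are given for the members alone, without the share of all genes.

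The 31 genes were at their highest in the youngest WT embryos and at their lowest in the oldest. By mean CPM over all WT libraries, 13 genes were highest at 0-2 h, 14 at 2-4 h and 4 (stg, dap, fzr and E2f1) at 8-12 h, and 30 were lowest at 16-20 h. The exception, BubR1, a kinetochore kinase of the spindle checkpoint, averaged 23.2 ± 11.9 CPM at 16-20 h (SD, n = 5) and 18.5 ± 7.18 CPM at 12-16 h (SD, n = 6), and was not called between these ages.

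**Figure D1:**
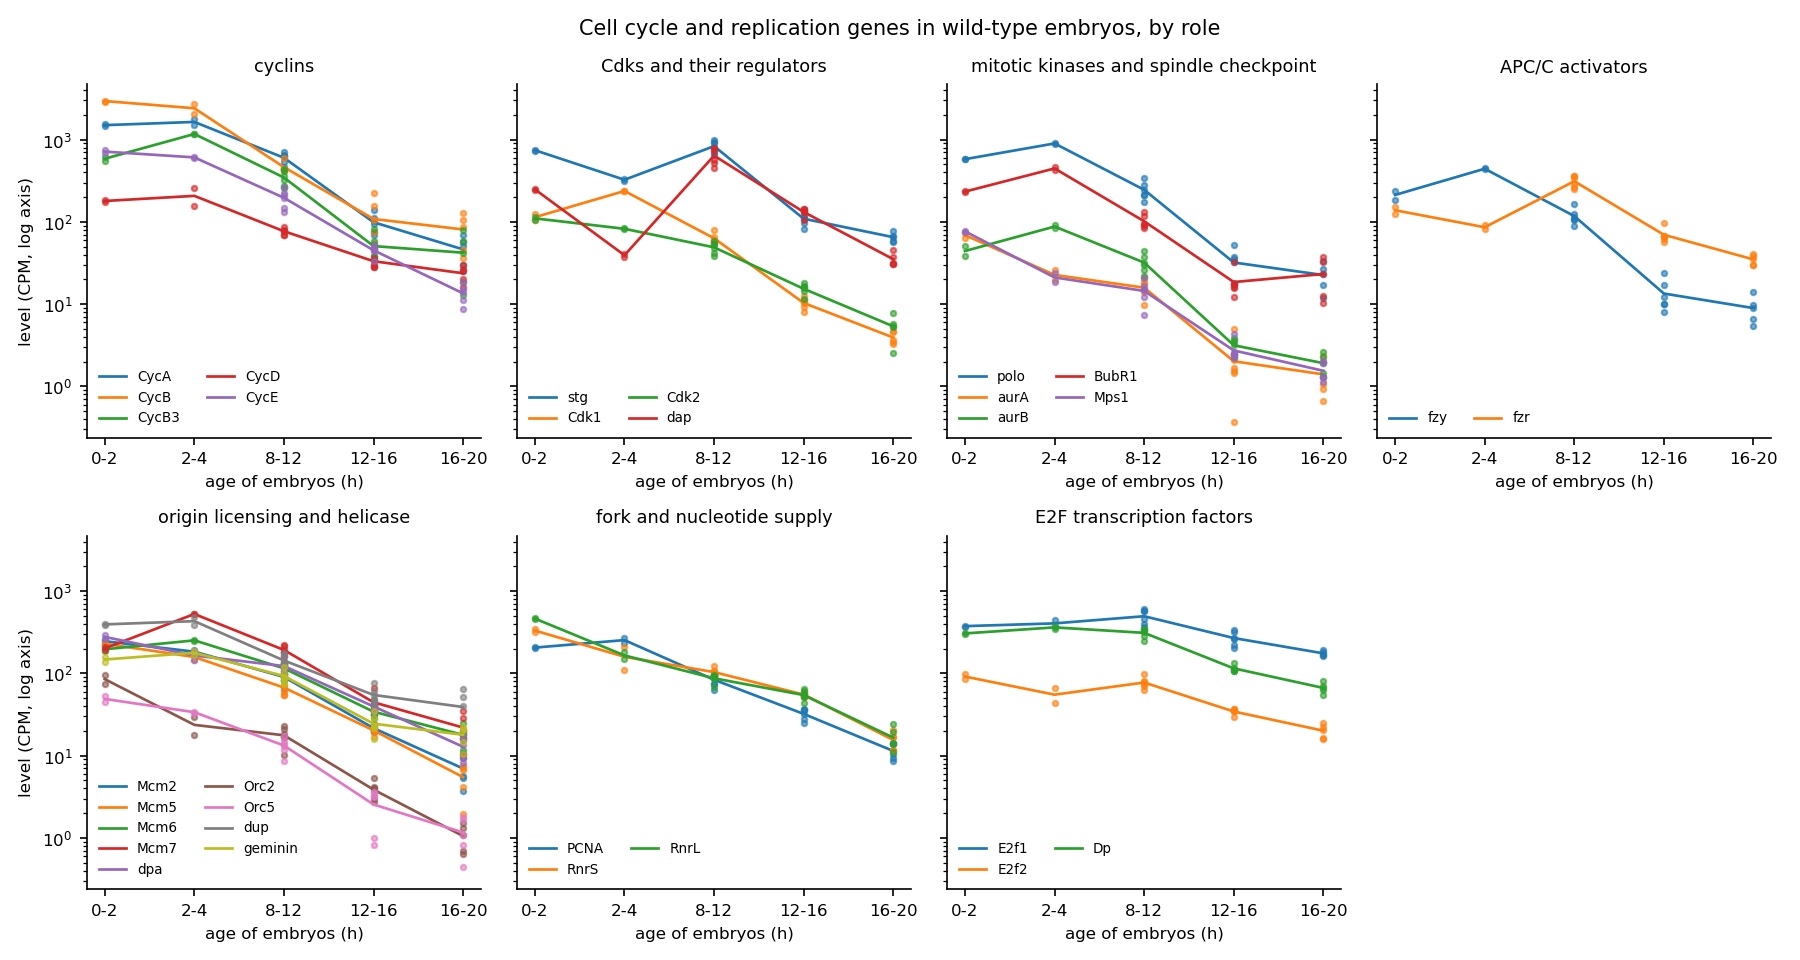
CPM (log axis) of the 31 genes against the age of WT embryos in hours, in 7 panels by role; points are libraries and lines join the stage means. Most lines drop between 8-12 and 12-16 h, where all 31 genes were lower, whereas dap, stg, fzr and E2f1 peak at 8-12 h.

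Maternal RNA is cleared and the zygotic genome becomes active between 0-2 and 2-4 h. In this window the share of members called was near that of all genes, and those called went both ways. At 2-4 h 4 were higher and 10 lower than at 0-2 h, where 39.0% of all genes were called (23.1% higher, 15.9% lower); their median log2 fold change was -0.23, against 0.18 for all genes. None of the 5 cyclins was called, although the libraries of the 2 ages did not overlap for CycB3, CycB and CycE. CycB3 had 1170 and 1172 CPM at 2-4 h, against 548 and 623 CPM at 0-2 h, whereas CycB and CycE were lower at 2-4 h. Among Cdk regulators, dap had 37.7 and 40.8 CPM at 2-4 h, against 243 and 254 CPM at 0-2 h, a log2 fold change of -2.66 (SE 0.22, adjusted p = 8.51e-09). stg, which sets the pace of the zygotic divisions, had 314 and 336 CPM at 2-4 h, against 732 and 755 CPM at 0-2 h (-1.19, SE 0.21, adjusted p = 0.000133). Cdk1, the mitotic Cdk itself, went the other way, with 237 CPM in both libraries at 2-4 h, against 104 and 124 CPM at 0-2 h (1.06, SE 0.22, adjusted p = 0.000551). For dap, stg and Cdk1 the libraries of the 2 ages did not overlap.

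Licensing genes also went both ways in the same window. Mcm7, a subunit of the helicase, had 520 and 534 CPM at 2-4 h, against 195 and 208 CPM at 0-2 h (1.39, SE 0.34, adjusted p = 0.00298), whereas dpa, the Mcm4 subunit of the same ring, was lower at 2-4 h (-0.75, adjusted p = 0.0450). Orc2, a subunit of the origin recognition complex, was lower as well (-1.85, SE 0.37, adjusted p = 0.000409). RnrL, the large subunit of ribonucleotide reductase, which makes deoxynucleotides, had 147 and 183 CPM at 2-4 h, against 459 and 468 CPM at 0-2 h (-1.49, SE 0.26, adjusted p = 0.000134), and the small subunit RnrS was lower too (-1.06). Both subunits of the enzyme were thus lower at the later age.

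Of the mitotic genes, fzy, the APC/C activator of mitosis (Cdc20), had 437 and 448 CPM at 2-4 h, against 186 and 239 CPM at 0-2 h (1.06, SE 0.40, adjusted p = 0.0418). aurB, the Aurora kinase of the chromosomal passenger complex, was also higher at 2-4 h (0.99, adjusted p = 0.0190), and aurA, the Aurora kinase of centrosomes, was lower (-1.61, adjusted p = 0.0495), as was the checkpoint kinase Mps1 (-1.86, adjusted p = 0.000146). These ages came only from the CR43432 set. That set fitted alone gave 2 higher and 12 lower genes. In the joint fit, leaving out WT 0-2 h replicate 1 left 9 called members (2 higher, 7 lower), where 3798 genes in all were called. Leaving out WT 2-4 h replicate 2 left 8 (3 higher, 5 lower), where 3650 genes in all were called.

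From 2-4 to 8-12 h 22 of the 31 genes fell and 4 rose, where 60.5% of all genes were called (28.4% lower, 32.1% higher); the median was -0.96, against 0.28 for all genes. All 5 cyclins fell, with log2 fold changes between -1.21 for CycA and -1.94 for CycB; within the CR43432 set alone, the only one with libraries at 2-4 h, 21 genes fell and 3 rose. The 4 that rose were dap (3.85, SE 0.22, adjusted p = 1.72e-11), fzr (1.66, SE 0.19, adjusted p = 2.72e-07), stg (1.27, SE 0.20, adjusted p = 1.42e-05) and E2f2, the repressive E2F (0.56, SE 0.22, adjusted p = 0.0309). The 6 libraries at 8-12 h had 448 CPM of dap at the lowest, a median of 652 and 793 at the highest, far above both libraries at 2-4 h. For fzr they had 249 CPM at the lowest, a median of 317 and 364 at the highest, against 81.0 and 90.9 CPM at 2-4 h. The regulators that stop cycling and the phosphatase that drives it were therefore all more abundant at the later age, while 22 of their fellow genes were less so.

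The largest change of the time course came next. All 31 genes were lower at 12-16 h than at 8-12 h, where 66.5% of all genes were called (30.6% lower, 35.9% higher); their median was -2.15, against 0.05 for all genes. Within each of the 3 sets of libraries taken alone, 30 of 31 (dora[A] set), 31 (dora[B] set) and 31 (CR43432 set) were lower. aurB had 2.27 CPM at the lowest, a median of 3.31 and 3.92 at the highest of the 6 libraries at 12-16 h, against 22.0, 30.9 and 44.8 CPM at 8-12 h (-3.31, SE 0.21, adjusted p = 1.22e-10). For fzy the lowest, median and highest were 7.95, 11.0 and 23.8 CPM at 12-16 h, against 88.9, 111 and 165 CPM at 8-12 h (-3.19). For stg they were 82.4, 111 and 134 CPM at 12-16 h, against 649, 865 and 980.0 CPM at 8-12 h (-2.92, SE 0.13, adjusted p = 8.44e-12). In none of these did the 2 ages overlap.

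Cdk1 had 8.02, 10.5 and 12.5 CPM (lowest, median, highest) at 12-16 h, against 55.6, 59.7 and 79.2 CPM at 8-12 h (-2.62, SE 0.13, adjusted p = 1.28e-11). dap fell as well, by 2.26 on the log2 scale (SE 0.12, adjusted p = 2.17e-11), and fzr fell by 2.15 (SE 0.12, adjusted p = 2.72e-11). By role, the median log2 fold change was -3.01 for the mitotic kinases and checkpoint, -2.30 for the cyclins, -1.96 for licensing and the helicase, -1.17 for the E2F genes and -0.91 for the fork and nucleotide genes. RnrL moved least (-0.68, SE 0.15, adjusted p = 0.000556). Lists of related genes moved the same way, with 37 of 39 further mitosis, kinetochore and condensin genes lower (median -2.22) and 27 of 29 further replication genes lower (median -1.22). Cell type markers moved at the same step: all 6 neuroblast markers were lower (median -2.36), all 5 muscle markers were higher (median 3.68), and of 4 neuron markers 3 were higher and 1 lower. The part of the tissue mixture in the members' change was not tested.

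At 16-20 h 24 of 31 genes were lower than at 12-16 h and none higher, where 52.1% of all genes were called (25.0% lower, 27.1% higher); the median was -0.91, against -0.03 for all genes. Here the order of the roles differed, with medians of -1.72 for the fork and nucleotide genes, -1.07 for licensing and the helicase, -0.51 for the mitotic kinases and -0.47 for the cyclins. dap had 37.7, 30.7, 45.1, 31.5 and 30.8 CPM at 16-20 h, against 105, 135 and 143 CPM (lowest, median, highest) at 12-16 h (-1.94, SE 0.13, adjusted p = 6.34e-10). The 7 genes not called were dup, fzy, polo, BubR1, CycB, aurA and CycB3, with log2 fold changes of -0.56 to 0.31. The split between roles rests on all sets together, because 16 genes were lower within the dora[A] set, 22 within the dora[B] set and 11 within the CR43432 set, which has 1 library at 16-20 h.

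dora[B] embryos held more RNA of most mitotic genes and of several licensing genes than WT embryos of the same age. Averaged over the 3 ages, 17 of the 31 genes were higher in dora[B] than in WT embryos and 3 were lower, where 42.5% of all genes were called (17.8% higher, 24.7% lower). The members' median log2 fold change was 0.75, against -0.38 for all genes. All 5 cyclins, 4 of 5 mitotic kinases and checkpoint genes (all but Mps1) and 5 of 9 licensing genes were higher, and no fork or nucleotide gene was. Summed over the 31 genes, dora[B] embryos had 10534 and 9237 CPM at 8-12 h, 4660 and 7087 CPM at 12-16 h, and 7454 and 3446 CPM at 16-20 h. The WT sums were 6585 and 7083 CPM at 8-12 h, 1364 and 1445 CPM at 12-16 h, and 740.1 and 634 CPM at 16-20 h.

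**Figure D2:**
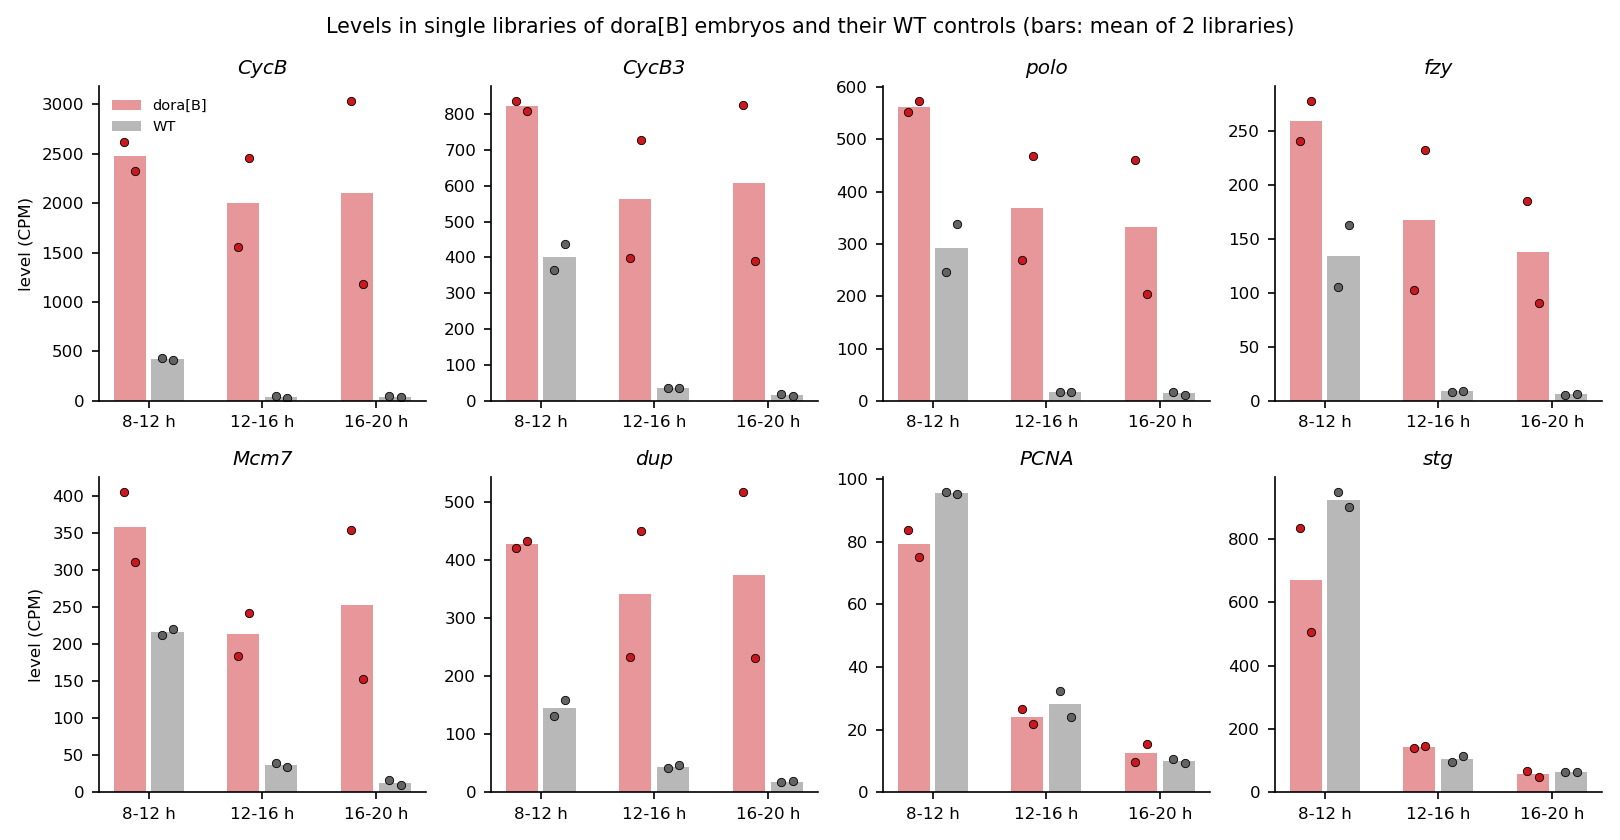
CPM of 8 genes in dora[B] embryos (red, left of each pair) and their WT controls at 8-12, 12-16 and 16-20 h; points are libraries and bars are means of 2. CycB, CycB3, polo, fzy, Mcm7 and dup stay high in dora[B] at 12-16 and 16-20 h while WT falls, whereas PCNA and stg drop in both genotypes.

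CycB, the cyclin of mitotic entry, had the largest difference of all members. It had 2619 and 2331 CPM in dora[B] embryos at 8-12 h, 1553 and 2457 at 12-16 h, and 3034 and 1181 at 16-20 h. WT embryos had 435 and 414 CPM of it at 8-12 h, 54.8 and 32.6 at 12-16 h, and 46.1 and 35.8 at 16-20 h. No dora[B] library overlapped a WT library, and the mean log2 fold change was 4.58 (SE 0.27, adjusted p = 4.52e-06), a 23.9-fold difference. CycB3, the B-type cyclin of anaphase, averaged 3.43 (SE 0.22, adjusted p = 4.52e-06). Its gene, at chromosome 3R from 24867934 to 24870816 (dm6), had 826 and 391 CPM in dora[B] embryos at 16-20 h, against 18.5 and 12.8 CPM in WT embryos (5.27, adjusted p = 0.000226). CycA, which acts in S phase and mitosis, had 604 and 294 CPM at 16-20 h in dora[B] embryos, against 30.0 and 24.7 CPM in WT embryos (mean 2.35, SE 0.20, adjusted p = 1.30e-05). CycD averaged 2.42, and CycE, the S phase cyclin, had the smallest of the 5 differences (0.86, adjusted p = 0.0109).

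Of the mitotic kinases, polo, which acts at centrosomes, kinetochores and cytokinesis, had 270.2 and 469 CPM in dora[B] embryos at 12-16 h and 460.1 and 204 CPM at 16-20 h. WT embryos had 18.0 and 16.7 CPM of polo at 12-16 h and 17.4 and 11.8 CPM at 16-20 h (mean 3.29, SE 0.23, adjusted p = 6.43e-06). BubR1 averaged 3.07 (SE 0.23, adjusted p = 9.45e-06), aurA 2.78 and aurB 1.84. fzy had 241 and 278 CPM in dora[B] embryos at 8-12 h, 103 and 233 at 12-16 h, and 185 and 91.2 at 16-20 h. In WT embryos fzy was at 106 and 163 CPM, then 7.94 and 9.63, then 5.51 and 6.55 at the same ages (mean 3.24, SE 0.26, adjusted p = 1.14e-05). For polo, BubR1 and fzy the dora[B] libraries lay above the WT libraries at each of the 3 ages. The second APC/C activator, fzr, was not called (-0.33), nor was Mps1 (-0.16).

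Licensing genes split by gene and not by complex. dup had 421 and 434 CPM in dora[B] embryos at 8-12 h, 233 and 452 at 12-16 h, and 517 and 232 at 16-20 h. In WT embryos dup was at 132 and 159 CPM, then 41.4 and 46.8, then 17.8 and 19.8 (mean 2.94, SE 0.23, adjusted p = 9.47e-06). geminin, the inhibitor of dup, was higher as well (2.14). Among the 5 measured helicase subunits, Mcm7 (2.49, SE 0.22, adjusted p = 1.79e-05), Mcm6 (1.58) and Mcm2 (0.36, adjusted p = 0.0406) were higher, and dpa (0.13) and Mcm5 (0.14) were not called. The average of Mcm2 rested on the oldest embryos: it had 80.1 and 81.3 CPM in dora[B] embryos at 8-12 h, 17.0 and 18.3 at 12-16 h, and 15.5 and 16.5 at 16-20 h. WT embryos had 91.0 and 106 CPM of Mcm2, then 19.5 and 20.1, then 5.69 and 5.25, so the dora[B] values lay below WT at the first 2 ages, where the gene was not called, and above WT at 16-20 h. Orc2 was lower in dora[B] embryos (-0.81, SE 0.29, adjusted p = 0.0398), and its largest value there was 14.98 CPM at 8-12 h, against 22.6 CPM in WT embryos.

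Genes of the fork, of E2F and of the zygotic control of division were mostly not called or were slightly lower. PCNA, the sliding clamp of DNA polymerase, had 83.8 and 75.0 CPM in dora[B] embryos at 8-12 h, 26.5 and 21.8 at 12-16 h, and 9.58 and 15.4 at 16-20 h. WT embryos had 95.6 and 95.1 CPM of PCNA, then 32.5 and 24.1, then 10.5 and 9.30. The PCNA groups overlapped at 12-16 and 16-20 h, and the mean was -0.06 (SE 0.16, adjusted p = 0.817). stg averaged -0.06 (SE 0.14, adjusted p = 0.785), although its partner Cdk1 was higher (2.34), and dap averaged -0.45 (adjusted p = 0.0566). E2f1 was lower (-0.43, SE 0.10, adjusted p = 0.00746), with 458 and 395 CPM in dora[B] embryos at 8-12 h, against 573 and 608 CPM in WT embryos. Its partner Dp was higher (0.75, SE 0.14, adjusted p = 0.00163), and RnrS was lower (-0.43, adjusted p = 0.0448). The estimates of E2f1, RnrS and dap lay near the median of all genes in this average, given above, and those of PCNA and stg lay above that median. The 3 calls of lower genes depended on the processing: with no filter on low counts none of E2f1, Orc2 and RnrS was called, and with relative log expression (RLE) scaling only E2f1 was.

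**Figure D3:**
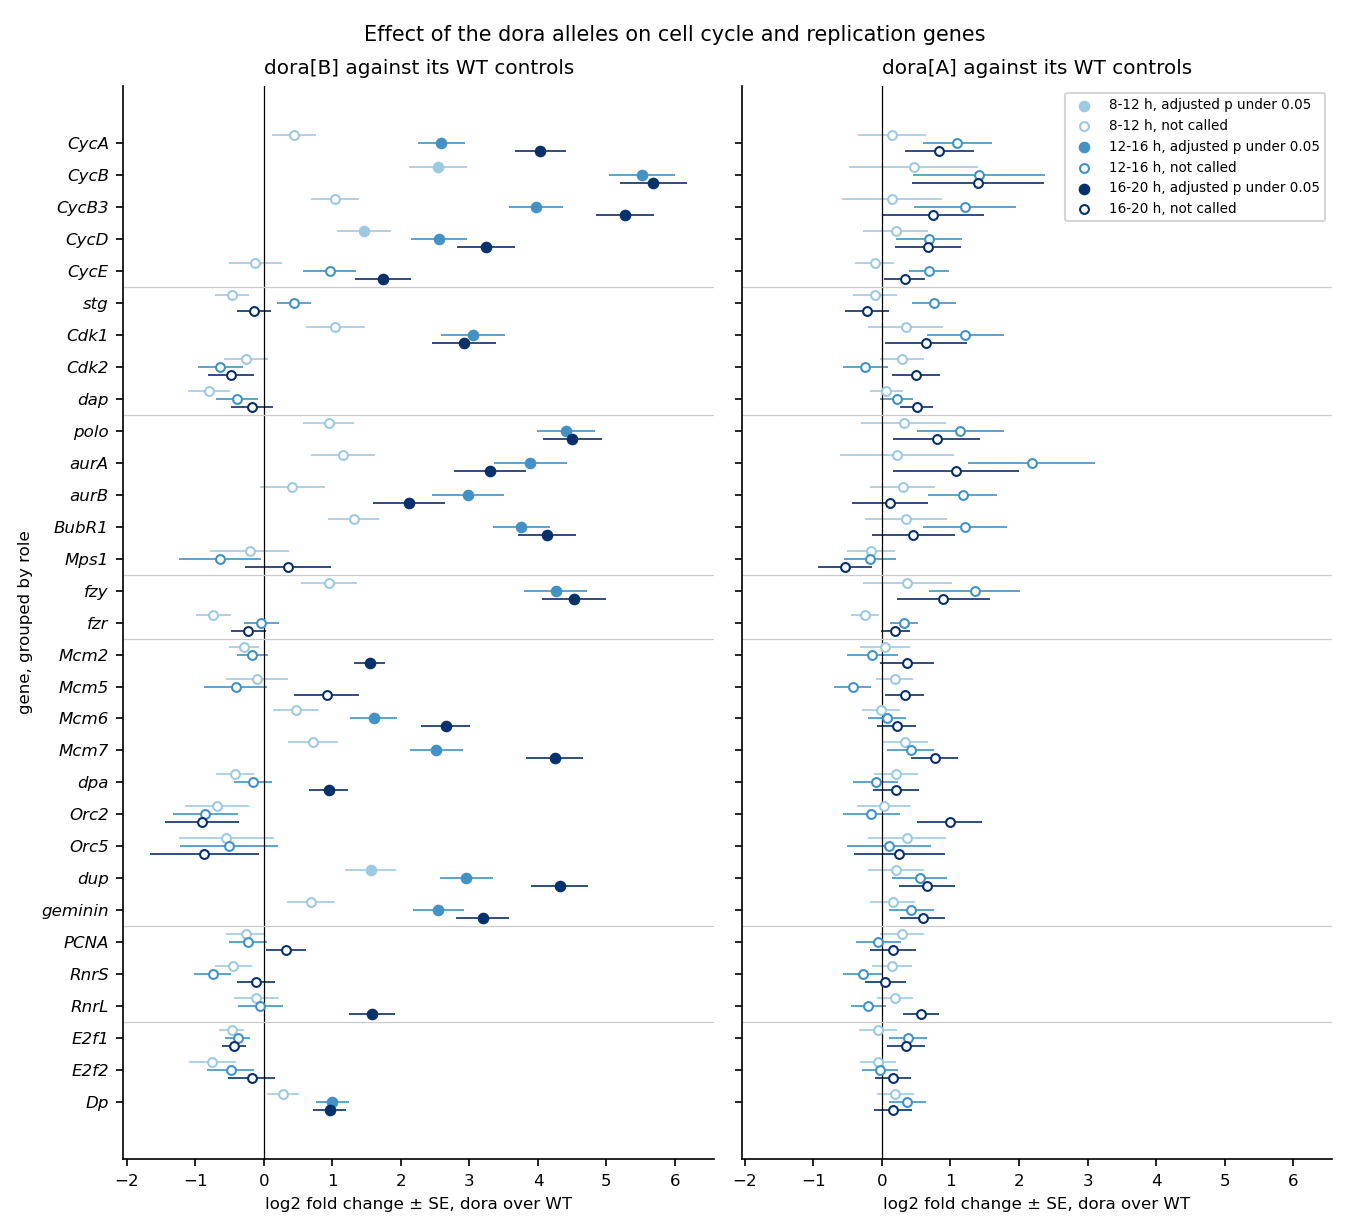
Log2 fold change ± SE of each gene, grouped by role, for dora[B] (left) and dora[A] (right) embryos over their own WT controls at 8-12, 12-16 and 16-20 h (light to dark); filled points were called. Filled points lie mostly right of 1 for dora[B] at 12-16 and 16-20 h, and no dora[A] point is filled.

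Age by age, 3 members (CycB, dup and CycD) were higher in dora[B] embryos at 8-12 h, 15 at 12-16 h and 19 at 16-20 h, and none was lower. Of all genes 6.87% were called at 8-12 h (6.68% higher, 0.193% lower), 24.0% at 12-16 h (11.3% higher, 12.7% lower) and 15.6% at 16-20 h (10.2% higher, 5.44% lower). The members' median was -0.10 at 8-12 h, 0.96 at 12-16 h and 1.58 at 16-20 h, against -0.03, -0.43 and -0.48 for all genes. At 16-20 h RnrL (1.58), dpa (0.95) and Mcm2 (1.54) joined the higher genes, with 50.4 and 24.5 CPM of RnrL in dora[B] embryos, against 11.2 and 14.0 CPM in WT embryos. The effect at 16-20 h exceeded that at 8-12 h for 11 genes, where 1.61% of all genes were called (0.446% higher, 1.16% lower); CycB3 had the largest such difference (4.24, adjusted p = 0.00468). Each of these counts moved when single libraries were left out. The count at 8-12 h became 0 without any 1 of its 4 libraries, where 49 to 147 genes in all were called. When only these 4 libraries were fitted it became 17 (13 higher, 4 lower), where 2932 genes in all were called (1979 higher, 953 lower). At 12-16 h it became 5 without WT replicate 2, where 132 genes in all were called. At 16-20 h it became 7 without WT replicate 1, where 68 genes in all were called. It became 0 without WT replicate 2 or when only the 4 libraries of that age were fitted, where 0 genes in all were called. The count for the difference between ages became 0 without any 1 of 6 libraries (both dora[B] and both WT libraries at 8-12 h and both WT libraries at 16-20 h), 6 without dora[B] 16-20 h replicate 1 and 18 without replicate 2. Those 6 fits called 1 to 4 genes in all, and the fits without dora[B] 16-20 h replicates 1 and 2 called 94 and 1035. The average over the ages was less dependent, with 17 to 18 genes called without each library in turn.

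Related lists moved in part with the members. In the same average, 25 of 39 other mitosis, kinetochore and condensin genes were higher in dora[B] embryos and 4 lower (median 1.66), among them pim (4.85), the fly securin, and thr (3.95), its partner in sister chromatid separation. Of 29 other replication genes 7 were higher and 3 lower (median -0.17), the highest of the named being Mcm10 (3.39) and dUTPase (3.29). Of 23 APC/C, SCF and mitotic exit genes 11 were higher and 4 lower (median 0.00), with twe (6.01), the Cdc25 of meiosis, and gwl (4.22), the Greatwall kinase. Of 16 checkpoint and Rb/Myb genes 9 were higher and 2 lower (median 0.73).

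Of the 4 maternal markers tested, bcd, osk and grk were called higher in dora[B] embryos on average, and pgc was not called. bcd, the anterior determinant whose RNA the mother deposits, had 122 to 129 CPM in dora[B] embryos at 8-12 h, 79.0 to 146 at 12-16 h and 77.6 to 179 at 16-20 h, against at most 2.18 CPM in their WT controls. In WT embryos of the CR43432 set bcd was at 108 and 149 CPM at 0-2 h. By contrast osk, the organiser of germ plasm, had 6.46 to 26.7 CPM in dora[B] embryos of all ages, against 0 to 1.80 CPM in their WT controls and 1090 and 1205 CPM in WT embryos at 0-2 h. pgc, a germ plasm RNA, was at 0 to 1.14 CPM in both genotypes, against 131 and 154 CPM in WT embryos at 0-2 h. grk, which encodes the ligand that sets the axes of the egg, had 13.3 to 13.5 CPM in dora[B] embryos at 8-12 h, 16.9 to 24.6 at 12-16 h and 9.54 to 14.0 at 16-20 h, against 1.39 to 1.88, 11.7 to 13.0 and 13.0 to 15.2 CPM in WT embryos. Its groups overlapped at 16-20 h, and it was called higher at 8-12 h alone of the single ages. The sum of the 4 maternal markers, most of it bcd in dora[B] embryos, was 155 and 151 CPM in dora[B] embryos at 8-12 h, 102 and 188 at 12-16 h, and 216 and 102 at 16-20 h. In WT controls it was 5.36 and 5.05 CPM, then 13.4 and 13.7, then 14.8 and 17.0. Within dora[B] the library with the larger maternal sum was also the one with the larger sum of members at each age.

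Markers of differentiated tissue were lower in dora[B] embryos on average, with all 5 muscle and all 4 neuron markers called, but none was called at 8-12 h. At that age the muscle markers summed to 2140 and 1537 CPM in dora[B] embryos, against 1482 and 1986 CPM in WT embryos, so the groups overlapped. The neuron markers summed to 1294 and 1141 CPM in dora[B] embryos at 8-12 h, against 1727 and 1950 CPM in WT embryos, without overlap. Most of the neuron sum was elav, with 1049 to 1174 CPM in dora[B] embryos, against 1650 to 1860 CPM in WT embryos. By estimate, 4 of 5 muscle and 3 of 4 neuron markers were positive at 8-12 h. The muscle sums in dora[B] embryos were 8441 and 5262 CPM at 12-16 h and 15259 and 29259 CPM at 16-20 h, against 21118 and 16078 CPM and then 41231 and 40952 CPM in WT embryos. The 4 neuron markers summed to 1135 and 1612 CPM at 16-20 h in dora[B] embryos, against 2719 and 2656 CPM in WT embryos. Neuroblast markers, which mark dividing neural precursors, were not higher in dora[B] embryos, with 2 of 6 lower. The part of maternal RNA and of the tissue mixture in the members' differences was not tested.

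In dora[A] embryos no gene of the 31 was called in any comparison, by edgeR or by DESeq2. Averaged over the 3 ages, 0% of all genes were called, and at 8-12 h 0.00897% (1 gene). At an unadjusted p under 0.05 there were 5 members in the average, 0 at 8-12 h, 4 at 12-16 h, 1 at 16-20 h and 0 for the difference between ages. These counts have no share of all genes to set them against. The estimates leaned one way, as 29 of 31 were positive in the average, where 50.8% of all genes were, with a median of 0.26 against 0.00 for all genes. The largest were aurA (1.16, SE 0.51), CycB (1.10, SE 0.55) and fzy (0.87), each with an adjusted p of 0.739.

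The dora[A] libraries of one age differed from each other at 8-12 and 12-16 h and were alike at 16-20 h. Summed over the 31 genes, dora[A] embryos had 8057 and 5221 CPM at 8-12 h, 3134 and 1415 at 12-16 h, and 1328 and 1238 at 16-20 h. The WT sums of this set were 6214 and 5980 CPM, then 1652 and 1344, then 827 and 890. At 16-20 h both dora[A] sums thus lay above both WT sums. CycB had 1098 and 307 CPM in dora[A] embryos at 8-12 h, 635 and 46.9 at 12-16 h, and 256 and 233 at 16-20 h. WT embryos of this set had 441 and 576 CPM, then 152 and 103, then 83.1 and 102. The groups overlapped at the first 2 ages and not at 16-20 h. Replicate 1 held the higher value at 8-12 and 12-16 h also for fzy, with 181 and 120 CPM at 8-12 h and 62.4 and 8.89 CPM at 12-16 h, against 114 and 119 CPM and then 16.3 and 11.6 CPM in WT embryos. The maternal markers summed to 49.9 and 6.43 CPM in dora[A] embryos at 8-12 h and 48.7 and 13.4 CPM at 12-16 h, against 6.92 and 23.0 CPM and then 22.4 and 18.7 CPM in WT embryos, so that replicate 1 was again the higher of the pair. The part of these libraries in the leaning of the estimates was not tested.

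The 2 alleles were compared in a joint fit that was added after the data had been seen. The dora[B] effect exceeded the dora[A] effect for 13 members and was below it for 2, where 17.1% of all genes were called (11.0% higher, 6.07% lower), and the median difference was 0.53, against -0.30 for all genes. The larger differences were CycB (3.52, SE 0.68, adjusted p = 0.00506), CycB3 (2.75, SE 0.52, adjusted p = 0.00432), polo (2.56, SE 0.46, adjusted p = 0.00304) and dup (2.50, SE 0.34, adjusted p = 0.00204). E2f1 (-0.63, adjusted p = 0.0271) and dap (-0.69, adjusted p = 0.0475) were the 2 below, and neither was called with RLE scaling or without the filter. aurA, with 1.64 (SE 0.62, adjusted p = 0.0770), was not called in this test. The alleles were measured in separate sets, each against its own WT controls, so allele and set cannot be told apart.

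The members' effects in dora[B] were set beside their change in early WT embryos, using only libraries of the CR43432 set for the latter so that no library was shared. Over the 31 genes, the log2 fold change from 0-2 to 2-4 h and the mean dora[B] effect had a Pearson r of 0.60 and a Spearman rho of 0.65, and over all 10830 genes measured in both they had 0.01 and 0.11. Mcm7, Cdk1, fzy and aurB, with positive early log2 fold changes, were called higher in dora[B], and dap, stg, Orc2 and RnrS, with negative ones, were not. The signs did not match throughout, because 8 of the 17 members called higher in dora[B] had a negative early estimate in this set: aurA (-1.88), Mcm2 (-0.66), CycB (-0.55), CycE (-0.48), and CycA, dup, CycD and Dp between -0.13 and -0.01. The genes are not independent samples and share both sets of libraries, so this is a description. With the change from 12-16 back to 2-4 h on the other axis the values were 0.65 and 0.64 over the members, and 0.53 and 0.62 over all genes. The mean dora[A] effect, in which no member was called, gave 0.42 and 0.50 over the members with the early change, and 0.02 and 0.09 over all genes. With the change from 12-16 back to 2-4 h it gave 0.54 and 0.62 over the members, and 0.27 and 0.38 over all genes.

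**Figure D4:**
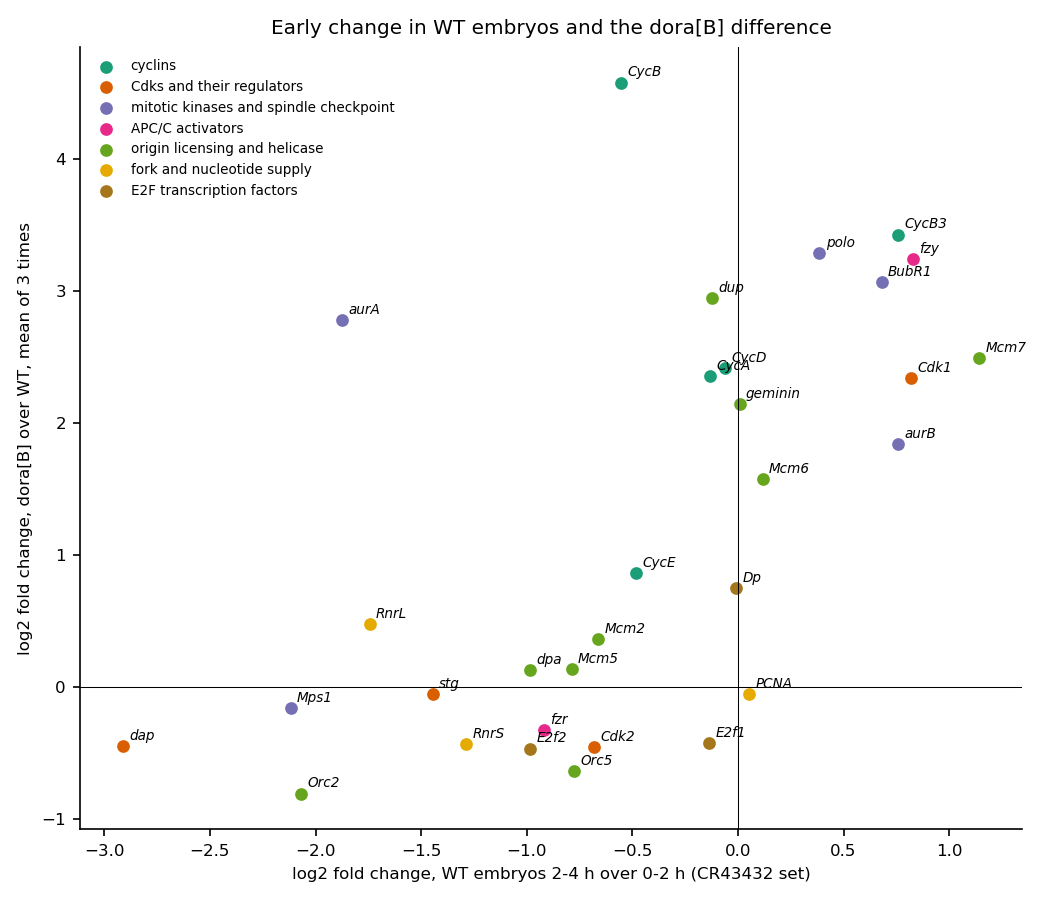
Log2 fold change of WT embryos at 2-4 over 0-2 h (CR43432 set only, horizontal) against the mean log2 fold change of dora[B] over WT embryos (vertical) for the 31 genes, coloured by role. Points run from dap, RnrL and Orc2 at the left, near or below 0, to Mcm7, fzy and Cdk1 at the right, between 2.34 and 3.24. At the left aurA lies at 2.78, and CycB, left of 0, has the highest value of all (4.58).

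In CR43432 mutants no member was called in the average over 3 ages, by edgeR or by DESeq2, where 0.0436% of all genes were called (5 genes), and 1 member had an unadjusted p under 0.05. The count at an unadjusted p has no share of all genes to set it against. The members' median was -0.07, against -0.02 for all genes. Summed over the 31 genes, the mutants had 6654 and 5668 CPM at 8-12 h, 1323 and 1556 at 12-16 h and 972 at 16-20 h, against 5961 and 5238, 1404 and 1895, and 988 CPM in WT embryos. The groups overlapped at 8-12 and 12-16 h.

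In S2 cells most estimates for dora were negative. In the 3 dora clones 27 of 31 members had a negative log2 fold change against the 3 WT clones, with a median of -0.47, against 0.00 for all genes. Only Mcm2, a helicase subunit, was called, at 31.9, 44.8 and 40.5 CPM in dora clones, against 70.7, 62.3 and 81.6 CPM in WT clones (-0.87, SE 0.16, adjusted p = 0.0399), where 2.73% of all genes were called (0.960% higher, 1.77% lower). CycE, the next in order, had 44.8, 50.2 and 52.9 CPM in dora clones, against 94.7, 66.5 and 109 CPM in WT clones (-0.87, adjusted p = 0.0529). Its groups did not overlap, but the value did not pass the test. Mcm6 (-0.65), dup (-0.73) and Mcm5 (-0.89) lay just beyond the threshold too, with adjusted p of 0.0529, 0.0536 and 0.0567. At an unadjusted p under 0.05 there were 22 members, a count with no share of all genes to set it against. CycB, by contrast, was at 203, 250 and 221 CPM in dora clones and 189, 188 and 206 CPM in WT clones. The number called depended on the method and the clone. DESeq2 called 15 members, all lower, where it called 795 genes in all (363 higher, 432 lower). Without WT clone 2 edgeR called 8 members, where 375 genes in all were called. It called 0 without WT clone 1, WT clone 3, dora clone 1 or dora clone 2, where 14 to 37 genes in all were called.

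The lists of related genes had medians on the same side in these clones, at -0.59 for 29 other replication genes (2 lower, none higher) and -0.42 for 39 mitosis genes (4 lower, none higher). Levels in S2 cells were not tested against embryos, because the sets were scaled separately. Their WT clones averaged 90.0 ± 21.5 CPM of CycE and 194 ± 10.1 CPM of CycB (SD, n = 3), and WT embryos at 8-12 h averaged 196 ± 49.0 and 462 ± 65.5 CPM of these (SD, n = 6).

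After depletion of AGO1, the main microRNA carrier of the fly, members were called in both directions, as were many other genes. In WT S2 cells 7 members were higher and 15 lower after Ago1 RNAi than after GFP RNAi, where 54.0% of all genes were called (25.6% higher, 28.4% lower); the median was -0.30, against -0.02 for all genes. In dora S2 cells 9 were higher and 3 lower, where 51.2% of all genes were called (24.6% higher, 26.7% lower), with a median of -0.02 against -0.01. Pairing each clone's libraries changed the second count to 13 higher and 7 lower, where 66.8% of all genes were called in that fit (32.5% higher, 34.4% lower). In WT cells all members but CycB, Dp, Orc5, aurA and BubR1 were called with the pairing, most of them lower. Of all genes 69.8% were called in WT cells in that fit (33.7% higher, 36.1% lower). Without the pairing, the members' share called higher lay near that of all genes in both genotypes. Their share called lower was above that of all genes in WT cells and below it in dora cells. With the pairing, the share of members called in dora cells lay near that of all genes. In WT cells the members' share called lower was then above that of all genes, and their share called higher was below it.

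CycB3, E2f1 and Cdk2 were higher in both genotypes. CycB3 had 58.7, 55.3 and 50.8 CPM in dora cells after Ago1 RNAi, against 26.3, 22.2 and 22.6 CPM after GFP RNAi (1.21, SE 0.10, adjusted p = 2.89e-06). In WT cells it had 62.5, 64.4 and 63.6 CPM after Ago1 RNAi, against 33.1, 33.4 and 29.8 CPM after GFP RNAi (0.98, SE 0.09, adjusted p = 9.81e-06). Values after the 2 treatments did not overlap in either genotype, and CycB3 was the member with the smallest adjusted p in both. E2f1, the activating E2F, had 719, 651 and 544 CPM in dora cells after Ago1 RNAi, against 354, 292 and 303 CPM after GFP RNAi (1.01, SE 0.14, adjusted p = 0.000111). In WT cells E2f1 had 654, 620.4 and 573 CPM after Ago1 RNAi, against 344, 271 and 257 CPM after GFP RNAi (1.08, SE 0.14, adjusted p = 6.17e-05). Its values after Ago1 RNAi thus lay above all those after GFP RNAi.

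Cdk2, the partner of CycE in S phase entry, was higher in dora cells (1.19, SE 0.13, adjusted p = 1.98e-05) and in WT cells (0.82, SE 0.12, adjusted p = 0.000198). Cdk1, CycD, dap and Mps1 were higher in both genotypes by 0.23 to 0.63. The span of E2f1 on chromosome 3R, from 21620304 to 21660871 (dm6), overlaps the genes mir-11 and mir-998, and that of Cdk2, from 20735623 to 20738414 on the same chromosome, overlaps mir-995. The strand setting of the counting is not given in the sources used here, so reads shared with overlapping genes on the other strand could not be told apart.

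**Figure D5:**
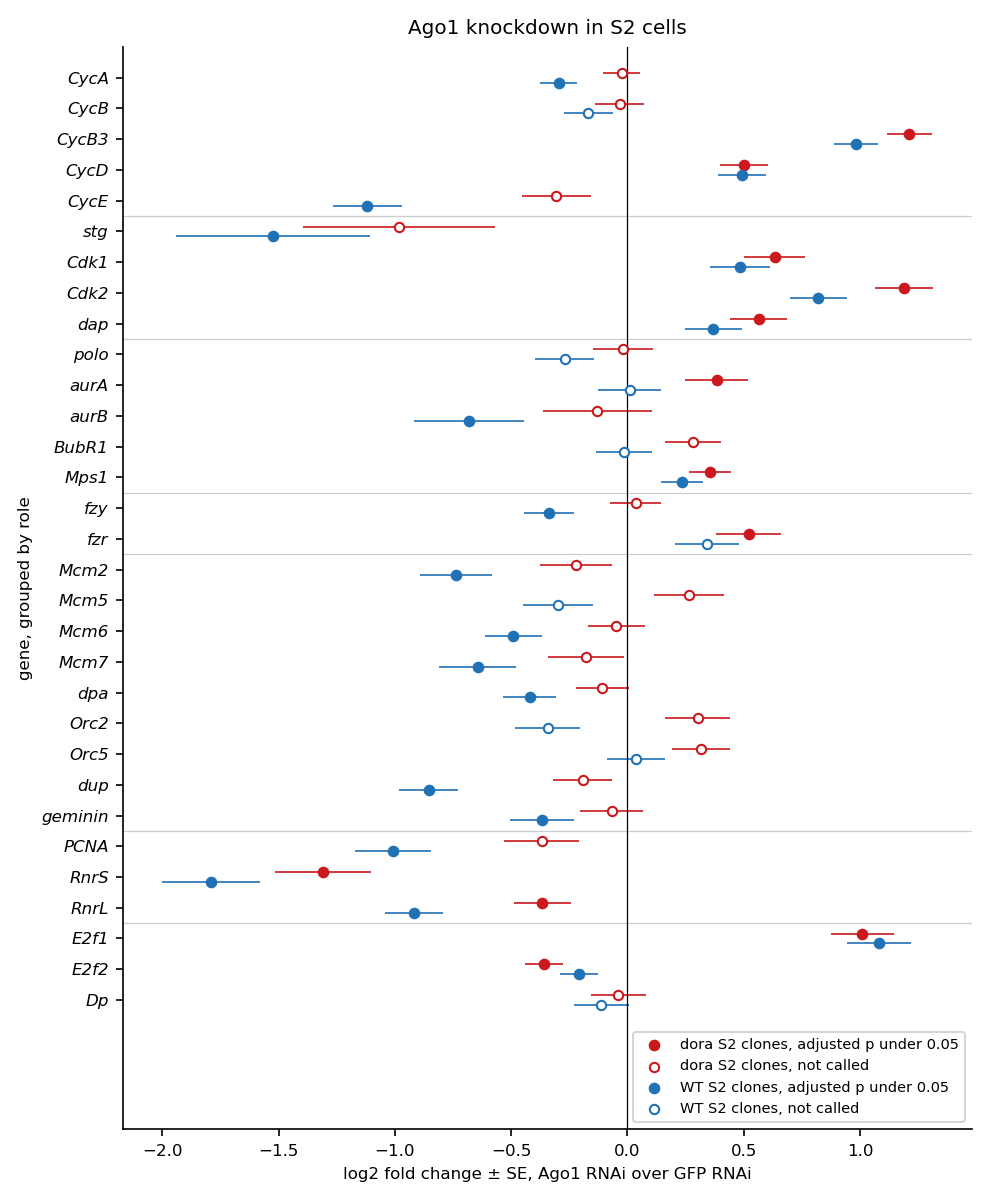
Log2 fold change ± SE of Ago1 over GFP RNAi for each gene, grouped by role, in dora (red, upper of each pair) and WT (blue) S2 clones; filled points were called. CycB3, Cdk2 and E2f1 lie near 1 in both genotypes, and most licensing and fork genes lie further left in WT than in dora cells.

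Among genes of DNA synthesis, RnrS and RnrL were lower after AGO1 depletion in both genotypes. RnrS had 95.6, 76.3 and 95.8 CPM in dora cells after Ago1 RNAi, against 216, 229 and 219 CPM after GFP RNAi (-1.31, SE 0.21, adjusted p = 0.00036). In WT cells it had 47.7, 101 and 70.2 CPM after Ago1 RNAi, against 253, 248 and 258 CPM after GFP RNAi (-1.79, SE 0.21, adjusted p = 4.28e-05). RnrS thus showed the largest difference downward of all members in both genotypes. RnrL was lower in dora cells (-0.37, adjusted p = 0.0272) and in WT cells (-0.92, SE 0.12, adjusted p = 9.92e-05). PCNA had 57.0, 98.7 and 84.5 CPM in WT cells after Ago1 RNAi, against 147, 176 and 159.5 CPM after GFP RNAi (-1.01, SE 0.16, adjusted p = 0.000311). No licensing gene was called in dora cells without the pairing of clones, whereas with it Mcm5 (0.26), Orc2 (0.30) and Orc5 (0.31) were higher and Mcm2 (-0.23) and dup (-0.20) lower. In WT cells 6 of 9 were lower, and 8 of 9 with the pairing, where 69.8% of all genes were called (33.7% higher, 36.1% lower). Among them, dup was at 49.8, 64.8 and 51.6 CPM after Ago1 RNAi, against 100.5, 100.9 and 98.8 CPM after GFP RNAi (-0.85, SE 0.13, adjusted p = 0.000187 without the pairing). In both PCNA and dup the WT values after the 2 treatments did not overlap.

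stg had 92.7, 208 and 92.8 CPM in WT cells after Ago1 RNAi, against 429, 428 and 274 CPM after GFP RNAi (-1.52, SE 0.42, adjusted p = 0.0116). In dora cells it had 211, 128 and 99.2 CPM after Ago1 RNAi, against 364, 320.1 and 182 CPM after GFP RNAi, where the groups overlapped and the gene was not called (-0.98, adjusted p = 0.0712), but it was lower when the libraries of a clone were paired (-0.99, adjusted p = 0.0161). Of other gene lists, 20 of 29 other replication genes were lower in WT cells and 1 higher (median -0.55), among them Orc6 (-1.56) and RPA1 (-1.03), and 7 were lower and 3 higher in dora cells (median -0.19). Of 39 mitosis genes 8 were lower and 8 higher in WT cells, and 3 lower and 20 higher in dora cells.

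The difference between the genotypes in the response to Ago1 RNAi was tested directly. No member was called by edgeR or by DESeq2, where 0.0763% of all genes were called by edgeR. At an unadjusted p under 0.05 there were 10 members, a count with no share of all genes to set it against. The response was more positive in dora than in WT cells for 29 of 31 members, with a median of 0.31 against -0.01 for all genes. CycE was the largest: it had 69.2, 58.5 and 61.8 CPM in dora cells after Ago1 RNAi and 89.2, 63.4 and 81.7 CPM after GFP RNAi. In WT cells CycE had 42.9, 52.5 and 50.9 CPM after Ago1 RNAi and 124, 90.8 and 102 CPM after GFP RNAi, and the responses differed by 0.81 (SE 0.21, adjusted p = 0.421). When each clone was kept as a block, 1.65% of all genes were called (1.09% more positive and 0.56% more negative in dora cells). In that fit 7 members differed, all more positive in dora cells: dup (0.67, adjusted p = 0.0134), Mcm5 (0.57, adjusted p = 0.0176), Orc2 (0.65, adjusted p = 0.0279), Mcm6 (0.45, adjusted p = 0.0282), PCNA (0.67, adjusted p = 0.0302), RnrL (0.56, adjusted p = 0.0341) and Mcm2 (0.52, adjusted p = 0.0387).

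Setting dora against WT cells within each treatment, no member was called after GFP RNAi (1.18% of all genes called, 10 members at an unadjusted p under 0.05, median -0.24, DESeq2 called 1) or after Ago1 RNAi (0.356%, 3 members, median 0.15, DESeq2 called 0). The counts at an unadjusted p have no share of all genes to set them against. CycB3 came nearest after GFP RNAi (-0.44, adjusted p = 0.0539), and 1 member was called without dora clone 1, where 89 genes in all were called. The 4 groups of the RNAi experiment serve in all of these comparisons, so the comparisons share libraries.

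In the S2 lines labelled for single transcripts no member was called by edgeR against WT lines, where 0.0128% of all genes were called in the ago1 line, 0.0256% in the zfh1 line and 0% in the h, kah and wgn lines. At an unadjusted p under 0.05 there were 4 members in the ago1 line, 13 in h, 2 in kah, 2 in wgn and 4 in zfh1. These counts have no share of all genes to set them against, so they do not tell the lines apart. DESeq2 called 1 member, higher, in the h line, where it called 80 genes in all (25 higher, 55 lower), and 0 members in the others. The h line stood apart by its direction, with 26 of 31 positive estimates and a median of 0.32, against 0.01 for all genes.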

How the data were processed

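The tables hold raw read counts per gene, deposited by the authors without normalisation; STAR 2.4, HTSeq and the dm6 genome are named in the submitters' processing notes, with no roles given. Rows that name no gene (6.02% to 20.5% of a library's counts) were left out. The 31 genes were matched by FlyBase identifier, and coordinates come from the RefSeq annotation of Release 6 (dm6).

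Each table was filtered (filterByExpr), scaled by trimmed mean of M-values (TMM) and fitted over all genes with edgeR 4.0.16 (robust quasi-likelihood test, R 4.3.3); SE is the log2 fold change over the root of F. WT stages were fitted over all 21 WT embryo libraries with the set as a batch term. Alternatives used DESeq2 1.42.0, RLE scaling, no filter, compared groups alone, single sets, replicate blocks and each library left out. The method was tested on simulated counts. CPM values are TMM-scaled within a table. The lowest chi-square per gene between replicates was 15.0, so no library was counted as a repeat.

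The members and gene lists were chosen with earlier results of these data known. All members may be named, the largest estimates among those not called included, and from each other list at most 4 called genes of a comparison, by adjusted p. In the RNAi experiment the Ago1 and GFP libraries of a number come from the same clone and deviated together (correlations of 0.52 to 0.69). The comparison of the 2 dora alleles was added after the data had been seen. Small RNA tables were not used here.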

Additional observations from a re-analysis of the deposited data

Results flagged for a closer look

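In WT embryos a single library stood apart from the rest of its stage in 9 of 93 groups tested by Dixon's ratio, the gap to the nearest library over the whole range; chance gives about 1 in 20 groups. At 8-12 h this was CycB, with 595 CPM in replicate 2 of the dora[A] set and 418 to 445 CPM in the other 5 libraries (0.848). The other 8 were at 12-16 h. Replicate 2 of the CR43432 set was high for Mcm6 (47.2 CPM, 0.680), Mcm7 (67.0 CPM, 0.780) and BubR1 (32.7 CPM, 0.744). Replicate 2 of the dora[B] set was high for fzr (97.0 CPM, 0.713) and Mps1 (4.27 CPM, 0.816). In the dora[A] set, replicate 2 was low for E2f2 (29.4 CPM, 0.699) and dap (105 CPM, 0.651), and replicate 1 was high for Dp (136 CPM, 0.637). All 31 genes were called lower at 12-16 than at 8-12 h without any 1 of these libraries.

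The dora[B] effect differed between 16-20 h and 8-12 h for 11 genes, by the edgeR interaction test. The differences in log2 fold change were 4.24 for CycB3, 3.60 for CycA, 3.57 for fzy, 3.56 for polo, 3.52 for Mcm7, 3.14 for CycB, 2.83 for BubR1, 2.76 for dup, 2.50 for geminin, 2.18 for Mcm6 and 1.83 for Mcm2 (adjusted p of 0.00468 to 0.0458).

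The dora[B] effect also differed from the dora[A] effect, by the edgeR test of the difference that was added after the data had been seen. It was larger in dora[B] by 3.52 for CycB, 2.75 for CycB3, 2.56 for polo, 2.50 for dup, 2.42 for BubR1, 2.4001 for fzy, 2.01 for Mcm7, 1.93 for CycD, 1.78 for geminin, 1.69 for CycA, 1.63 for Cdk1, 1.51 for Mcm6 and 1.33 for aurB. For dap it was -0.69 and for E2f1 -0.63.

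CycE differed between dora and WT S2 cells in opposite directions under the 2 treatments, in each library. Its log2 fold change of dora over WT was -0.44 after GFP RNAi and 0.37 after Ago1 RNAi. Neither value was called, and this opposition was not tested beyond the difference between the responses, which was not called.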

How the results depend on the processing

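Of the 27 counts of members called, those that moved by more than 1.5 times did so as follows. For dora[B] at 8-12 h (3), DESeq2 called 6 (3 higher, 3 lower), RLE scaling 1, no filter 5 and the compared groups alone 17. These fits called 1317, 480, 1040 and 2932 genes in all. The counts without single libraries were all 0, where 49 to 147 genes in all were called. At 12-16 h (15) leaving out single libraries gave 5 to 15, and at 16-20 h (19) 0 to 19. In the compared groups alone at 16-20 h it was 0, where 0 genes in all were called. For the difference between ages (11), DESeq2 and no filter both called 17, where they called 443 and 419 genes in all. Single libraries left out gave 0 to 18, where 1 to 1035 genes in all were called. In S2 dora clones (1), DESeq2 called 15, no filter 9 and the replicate block 0, where they called 795, 383 and 32 genes in all. Without single clones it was 0 to 8. Under GFP RNAi (0) DESeq2, RLE scaling and the block each called 1, where they called 330, 96 and 317 genes in all, with 0 to 1 without single clones. In the h line (0) DESeq2 called 1, where it called 80 genes in all. WT embryos at 2-4 h (14) gave 8 to 10 without single libraries, and at 16-20 h (24) 11 within the CR43432 set, where 1754 genes in all were called. The block of clones called 20 for Ago1 RNAi in dora cells (12) and 7 for the difference in response (0), where 5253 and 130 genes in all were called. RnrS at 8-12 against 2-4 h ranged from -1.05 to 0.0135 without single libraries, the positive value (adjusted p = 0.982) being without CR43432 set WT 2-4 h replicate 1. The causes of these shifts were not tested.

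The replicate number as a block changed no other count by more than 1.5 times. Same-numbered embryos deviated together with correlations of -0.06 to 0.38 and S2 dora clones of -0.26 to 0.17, and no label ties these numbers to a shared collection. The median of all genes shifted with scaling: for dora[B] it was -0.43 at 12-16 h with TMM and -0.19 with RLE, and -0.48 and -0.36 at 16-20 h, or -0.04 with the compared groups alone. For WT at 2-4 h it was 0.18 with edgeR and 0.01 with DESeq2. Of 10137 estimates of single genes under the alternatives, 394 lost and 146 gained a call. The sign changed in 1 of 3105 estimates of called genes and in 485 of 7032 of genes not called. Not run were the 2 earliest WT steps within the dora sets, which have no such libraries, and the CR43432 average without a 16-20 h library. With 2 libraries per group, a difference that was not called may be missed, and library depth was at least 8.96 M counts.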

Other observations

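Early cycle regulators that the mother supplies, which are not among the 31 genes, were described for comparison. All 8 measured in WT embryos were lower at 8-12 than at 2-4 h (edgeR, median log2 fold change -5.08). Of the 7 that could be tested in the dora[B] set, 3 were higher in dora[B] embryos and 1 was lower (median 0.06). plu, which with its partner kinase complex drives the embryonic S-M cycles, averaged 28.8 CPM in dora[B] embryos, against 0.42 CPM in WT embryos (6.53, SE 0.55). dhd, the thioredoxin that remodels sperm chromatin, averaged 2.06 CPM in dora[B] embryos, against 0.11 CPM in WT embryos. Of 4 germline markers 1 was higher in dora[B] embryos, bam (4.62), and 2 were lower.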
